A study of Homo sapiens with 32 samples.

Results

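The transcripts described here are 10 genes of the Notch signaling pathway: the receptors NOTCH1, NOTCH2, NOTCH3 and NOTCH4, the ligands JAG1, JAG2 and DLL1, and the target genes HES1, HEY1 and NRARP. They were chosen by name, and each was found by its Ensembl identifier among the 48804 genes of the count table. MDA-MB-468, an established cell line from a triple-negative breast cancer (TNBC), was treated with PBS (control), salinomycin (Sal) at 0.5 µM, dasatinib (Das) at 15 µM, or both drugs together (S + D, 15.5 µM in total), for 24 h or 72 h. Each of the 8 conditions had 4 biological replicates sequenced as bulk RNA, which makes 32 libraries. Sal is a polyether ionophore and Das an inhibitor of Src family and Abl kinases. All cells were of 1 line, so the replicates describe the spread of that line and not of tumors, and no condition targeted Notch directly. The paper cites earlier reports that Sal suppresses several developmental signaling pathways, Notch among them.

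Notch receptors are single-pass membrane proteins that are activated when a ligand of the Jagged or Delta-like family on a neighboring cell binds them. An ADAM protease and then γ-secretase cut the bound receptor, and the released intracellular domain enters the nucleus, where it joins RBPJ and a Mastermind protein at target genes. HES1 and HEY1 encode transcriptional repressors induced in this way, and NRARP encodes an ankyrin repeat protein that is itself a Notch target and limits the activity of the intracellular domain. In breast epithelium the pathway takes part in the choice between luminal and basal fates, and several receptors and JAG1 have been studied in triple-negative disease.

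The library totals ranged from 25692561 to 42769687 counts. Over all libraries the epithelial genes were abundant, with a median of 302 CPM (read counts scaled to a common library total) for EPCAM and 1567 CPM for KRT19, while PGR never exceeded 3 counts and the leukocyte gene PTPRC had a median of 0.0284 CPM. ERBB2, with a median of 117.5 CPM, and ESR1, with 7.45 CPM, were detected as RNA, and the fibroblast collagen genes differed, with COL1A1 at a median of 43.5 CPM and COL3A1 at 0 CPM. The labels leave 1 library of each condition without a replicate number. Deviations of these 8 libraries from their groups were correlated across genes at 0.522 to 0.666 within a time point, so they may form a batch, inside which no test is possible with a single library per condition. The test reported has no term for it, and the calls that changed in the 3 numbered libraries alone or with a batch term are given beside the results. The unnumbered library had the highest JAG1 and JAG2 level of its group in 8 of 8 conditions, the highest NOTCH3 level in 6, and the lowest NOTCH2 level in 6.

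Levels between genes can be compared only per length, as CPM per kilobase of exon. On that scale NOTCH3 was the most abundant member, with condition means from 39.9 to 150.5. HES1 followed with means from 13.8 to 53.2 and NOTCH2 with means from 11.2 to 18.2. The next members were JAG1 (3.30 to 7.94), NRARP (2.30 to 7.43) and NOTCH1 (3.69 to 6.89), whose ranges overlapped. JAG2 ranged from 0.630 to 2.095 and HEY1 from 0.202 to 0.439. NOTCH4, from 0.0210 to 0.0624, and DLL1, from 0.0125 to 0.0337, were close to the limit of detection in this line.

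**Figure D1:**
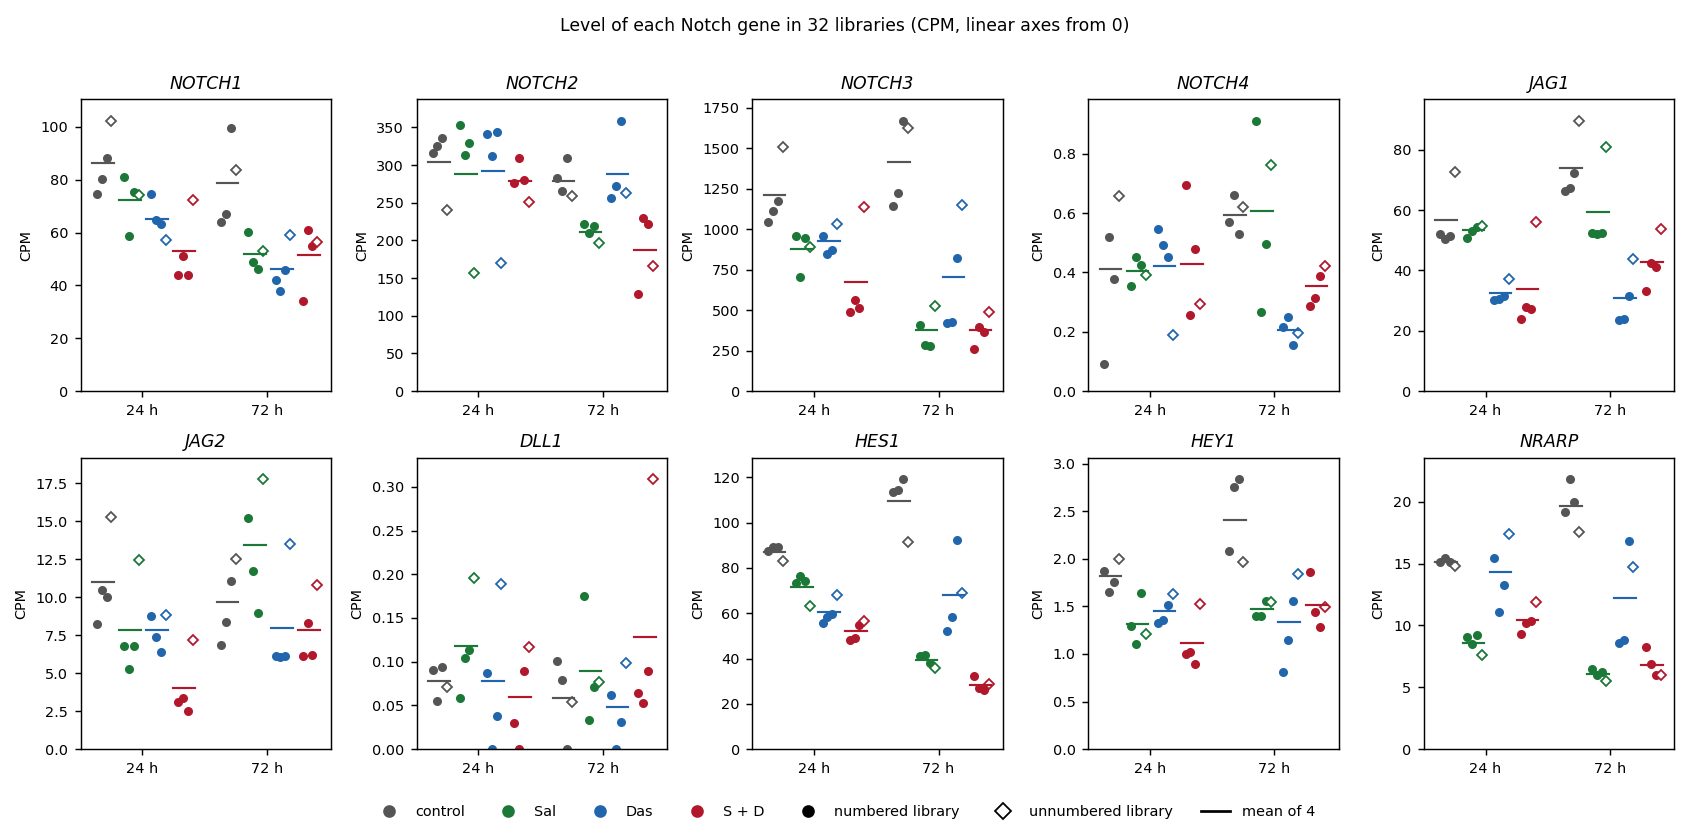
Level of each of the 10 members in CPM (vertical axis, linear from 0, with its own range in each panel) in the 8 conditions, grouped by time on the horizontal axis. Points are single libraries, with open diamonds for the unnumbered ones, and bars are means of 4. NOTCH3 lies between 262.5 and 1669 CPM, while DLL1 does not exceed 0.309 CPM.

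The first comparisons set every treatment against the PBS libraries of its own time point, to ask how the drugs alone and together changed these transcripts. Of the 9 members with enough counts to be tested, Sal lowered 1 at 24 h (NRARP), Das 1 (HES1), and S + D 6 (NOTCH1, NOTCH3, JAG2, HES1, HEY1 and NRARP). At 72 h Sal lowered 4 (NOTCH1, NOTCH3, HES1 and NRARP), Das 4 (NOTCH1, NOTCH4, JAG1 and HES1) and S + D 6 (NOTCH1, NOTCH2, NOTCH3, JAG1, HES1 and NRARP). No member was higher than control in any of the 6 comparisons by the edgeR test at an adjusted p under 0.01, nor by DESeq2, and none that lay above control had an unadjusted p under 0.05. In bulk RNA, fewer cells expressing a gene and less RNA of it per cell cannot be told apart.

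Over all genes tested at 24 h, Sal lowered 2.23% and raised 4.55%, Das lowered 6.88% and raised 6.99%, and S + D lowered 16.5% and raised 17.1%. At 72 h Sal lowered 26.8% and raised 26.3%, Das lowered 9.36% and raised 10.5%, and S + D lowered 27.9% and raised 27%. The 4 of 9 members lower with Sal at 72 h stand beside 26.8% of all genes, and the 6 of 9 lower with S + D at 24 h beside 16.5%. The median log2 fold change of the 9 members under Sal, Das and S + D was −0.29, −0.36 and −0.68 at 24 h, where the medians over all genes were −0.02, 0.02 and 0.04. At 72 h it was −0.61, −0.78 and −0.76, against 0.00, 0.02 and 0.01. At 24 h deviations of libraries with the same number were correlated, though libraries with different numbers were not compared. With the number as a block JAG1 was also called, which gave 2 members with Das and 7 with S + D. Counts moved with single libraries: with S + D at 24 h 3 were called without S + D replicate 1, 2 or 3, and with Das at 72 h 1 without Das replicate 1, 2 without replicate 2 and 7 without the unnumbered library. In the numbered libraries Sal lowered 4 members, Das 2 and S + D 7 at 24 h, and 4, 6 and 4 at 72 h. With a term for the unnumbered libraries the numbers were 2, 2 and 7 at 24 h and 6, 7 and 7 at 72 h. No call was lost with that term, and it added HES1 with Sal and JAG1 with Das and S + D at 24 h, and at 72 h JAG1 with Sal, NOTCH3 and NRARP with Das, and HEY1 with all 3 treatments. The shares of all genes called under these alternatives were not computed, so their counts cannot be set beside the shares above.

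**Figure D2:**
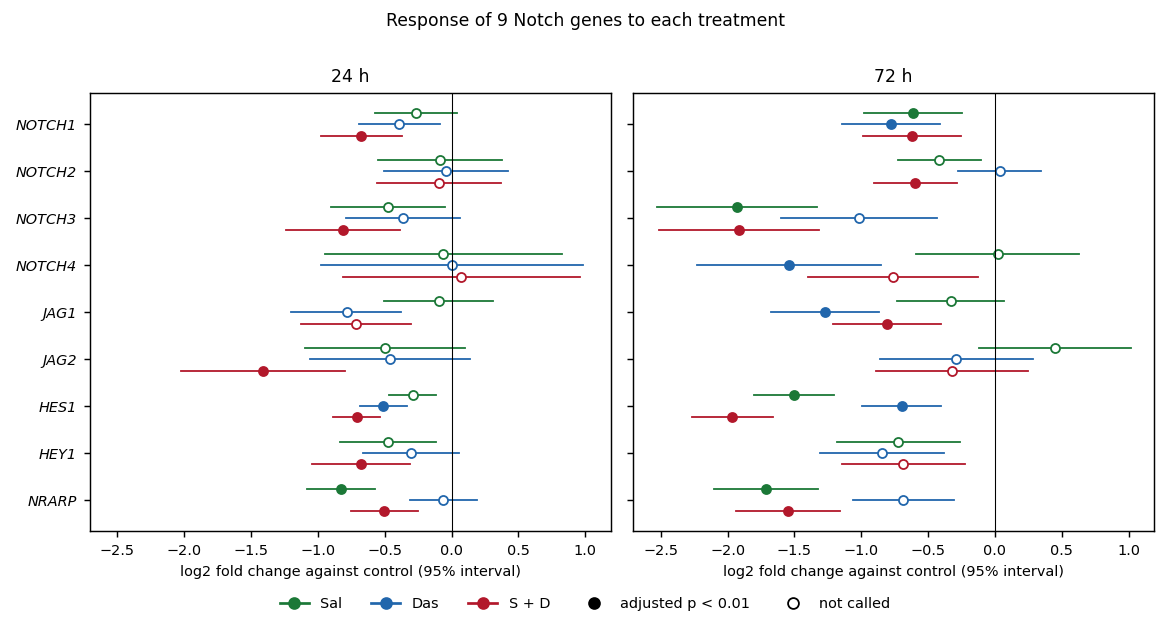
Log2 fold change against control (horizontal axis) of the 9 tested members with each treatment at 24 h and 72 h, with bars for approximate 95% intervals. Filled points mark an adjusted p under 0.01, and all of them lie below 0, down to −1.96 for HES1 with S + D at 72 h.

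NOTCH3, HES1 and NRARP had the 3 largest falls at 72 h both with Sal and with S + D, so their proximal promoters are shown for reference. The sequences are the 250 bases before the RefSeq gene start in GRCh38.p14, written 5′ to 3′ on the strand of the gene: chr19:15200996-15201245 on the minus strand for NOTCH3, chr3:194135898-194136147 on the plus strand for HES1 and chr9:137302272-137302521 on the minus strand for NRARP. Capitals mark matches on either strand to the RBPJ core TGGGAA, its longer form GTGGGAA, or CACNAG, the N box bound by HES proteins.
NOTCH3: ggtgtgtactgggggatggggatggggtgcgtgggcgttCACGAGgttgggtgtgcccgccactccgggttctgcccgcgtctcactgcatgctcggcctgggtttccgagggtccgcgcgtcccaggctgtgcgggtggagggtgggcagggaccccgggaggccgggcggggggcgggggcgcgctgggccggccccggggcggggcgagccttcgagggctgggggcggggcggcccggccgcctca
HES1: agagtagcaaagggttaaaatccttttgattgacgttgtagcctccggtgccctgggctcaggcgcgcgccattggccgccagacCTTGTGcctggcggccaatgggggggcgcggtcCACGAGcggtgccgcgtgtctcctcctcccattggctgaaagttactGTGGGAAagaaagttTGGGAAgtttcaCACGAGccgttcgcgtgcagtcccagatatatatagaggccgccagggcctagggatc
NRARP: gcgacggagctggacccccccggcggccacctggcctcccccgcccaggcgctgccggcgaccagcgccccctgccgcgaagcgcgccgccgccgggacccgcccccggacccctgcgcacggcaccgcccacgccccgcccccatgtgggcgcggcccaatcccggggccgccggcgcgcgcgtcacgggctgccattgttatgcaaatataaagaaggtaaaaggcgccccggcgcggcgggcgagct
The HES1 window held GTGGGAA from −85 to −79, which contains a TGGGAA, a further TGGGAA from −70 to −65, and 3 matches to CACNAG that start at −165, −132 and −58. NOTCH3 held 1 match to CACNAG, from −211 to −206, and the NRARP window held none of the letters searched. Among 35116 promoters of this length, 20.8% held TGGGAA, 5.43% GTGGGAA and 32% CACNAG on either strand. Promoters of only 8 of the 10 members were searched. Of these 8, 1 held each of the RBPJ forms (HES1) and 3 held CACNAG (HES1, NOTCH3 and NOTCH4). A match is a description of the letters and not of binding.

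NOTCH3 (ENSG00000074181, chr19:15269849-15311806, minus strand, GRCh37) is the receptor with the most RNA in these cells. Values of single libraries are given here and below in the order replicate 1, 2, 3 and unnumbered. The control libraries of 24 h held 1047, 1114, 1174 and 1510 CPM, those of Sal 961, 704, 947 and 892 CPM, those of Das 962, 850.3, 873 and 1030 CPM and those of S + D 486, 563, 515 and 1135 CPM. All Sal and Das libraries lay below all controls, while the unnumbered S + D library reached into the control range and the other 3 lay far below it. S + D lowered NOTCH3 at 24 h, with a log2 fold change of −0.81 ± 0.22 (SE) and an adjusted p of 0.00627, and of −1.08 in the numbered libraries. This call was lost when control replicate 2 or 3, the unnumbered control, or S + D replicate 1, 2 or 3 was left out, with an adjusted p of up to 0.0242. It was also lost in the fit of all 32 libraries (−0.84, 0.0144). Sal (−0.48 ± 0.22, adjusted p = 0.162) and Das (−0.36 ± 0.22, 0.257) did not pass at 24 h, although Sal passed in the numbered libraries (−0.34, 0.00799).

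At 72 h the NOTCH3 controls held 1147, 1222, 1669 and 1626 CPM. With Sal the libraries held 408, 285, 282 and 529 CPM, and with S + D 262, 397, 367 and 492 CPM, all below every control. Sal lowered NOTCH3 3.82-fold (log2 −1.93 ± 0.30, adjusted p = 2.94e-05) and S + D 3.77-fold (−1.92 ± 0.30, 3.05e-05). Das split its libraries, at 419, 424, 821 and 1149 CPM, with replicates 1 and 2 near the S + D level and the unnumbered library at the edge of the control range. Its log2 fold change of −1.02 ± 0.30 missed the cutoff (adjusted p = 0.0142) and passed it without the unnumbered Das library (0.00153) and in the numbered libraries (−1.28, 0.00213).

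NOTCH1 (ENSG00000148400, chr9:139388885-139440500, minus strand) was lower with all treatments at 72 h and with S + D at 24 h. At 24 h the controls held 74.8, 80.4, 88.2 and 102 CPM and the S + D libraries 43.9, 51.1, 44.03 and 72.5 CPM, a log2 fold change of −0.67 ± 0.16 (adjusted p = 0.00222). The groups did not overlap, and the values for Sal (−0.27 ± 0.15) and Das (−0.39 ± 0.15) did not pass (adjusted p = 0.29 and 0.0816). At 72 h the controls spread from 64.2 to 99.7 CPM, while Sal held 60.1, 48.8, 46.3 and 53.2 CPM, Das 42.2, 37.8, 45.8 and 59.0 CPM and S + D 33.9, 61.1, 55.0 and 56.5 CPM. The 3 falls were close in size, at −0.61 ± 0.19 for Sal, −0.78 ± 0.19 for Das and −0.62 ± 0.19 for S + D (adjusted p = 0.00826, 0.00446 and 0.00713). Each call changed with single libraries: without control replicate 3, the highest control, the adjusted p rose to 0.0396, 0.0213 and 0.035. The calls were also lost without the unnumbered control, without Sal replicate 2, 3 or the unnumbered one, without Das replicate 1 or 2, and without S + D replicate 1, 3 or the unnumbered one. In the numbered libraries Sal (0.0213) and S + D (0.0141) missed the cutoff and Das kept it (0.00533).

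NOTCH2 (ENSG00000134250, chr1:120454176-120643366, minus strand) has near-identical partial copies, the NOTCH2NL genes, so its counts are uncertain. At 24 h it did not pass with any treatment, with log2 fold changes from −0.09 to −0.04, and the unnumbered library was the lowest of each group. The controls of 72 h held 283, 266, 309 and 259 CPM, the Das libraries 256, 273, 358 and 264 CPM and the S + D libraries 128, 230.4, 222 and 166 CPM. S + D lowered NOTCH2, with a log2 fold change of −0.60 ± 0.16 (adjusted p = 0.00306), a call that was lost without control replicate 3 or the unnumbered S + D library (0.017) and in the numbered libraries (−0.58, 0.0131). The fit of all 32 libraries lost it as well (−0.58, 0.0145). Sal gave −0.42 ± 0.16 with no overlap between groups (0.0282), and Das 0.04 ± 0.16 (0.883).

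NOTCH4 (ENSG00000204301, chr6:32162620-32191844, minus strand), a receptor best known from endothelium, stayed under 1 CPM in every library. Of its exon bases 1.01% are shared with GPSM3 on the same strand. At 72 h the controls held 0.569, 0.661, 0.528 and 0.620 CPM and the Das libraries 0.218, 0.250, 0.155 and 0.196 CPM, so that all Das libraries lay below all controls. Das lowered it 2.90-fold (−1.54 ± 0.35, adjusted p = 0.00302), but the adjusted p was 0.0108 without control replicate 2, above the cutoff also without Das replicate 1, and 0.0147 in the numbered libraries. S + D gave −0.76 ± 0.33 (0.0481), and at 24 h all 3 estimates lay between −0.06 and 0.07.

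JAG1 (ENSG00000101384, chr20:10618332-10654647, minus strand) encodes the ligand with the most RNA here, and at 72 h it was lower with Das than with Sal. Of its exon bases 3.29% are shared with an antisense gene. The controls held 52.0, 50.3, 51.5 and 72.6 CPM at 24 h, against 50.8, 53.2, 54.4 and 54.7 CPM with Sal, 30.0, 30.6, 31.5 and 37.2 CPM with Das and 23.9, 27.8, 27.1 and 56.0 CPM with S + D. All Das libraries lay below all controls, and so did the 3 numbered S + D libraries, while the unnumbered S + D library lay inside the control range. Das gave −0.79 ± 0.21 with an adjusted p of 0.0122, just above the cutoff, and passed with the replicate block (−0.77, 0.000198). S + D gave −0.71 ± 0.21 (0.0109), passed with the block (−0.76, 0.000117), and passed without the unnumbered S + D library (7.87e-06). Both passed in the numbered libraries, at −0.70 (2.3e-08) and −0.95 (1.7e-10).

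At 72 h the JAG1 controls held 66.3, 67.4, 72.1 and 89.5 CPM and the Das libraries 23.4, 23.9, 31.6 and 43.9 CPM. Das lowered JAG1 2.41-fold (−1.27 ± 0.21, adjusted p = 0.000227), a call that stayed when each library was left out in turn. The S + D libraries, at 33.3, 42.4, 41.1 and 53.9 CPM, had a mean between those of Das and control, with −0.81 ± 0.21 (0.0023), and this call was lost without S + D replicate 1 (0.0106). Sal gave −0.33 ± 0.20 (0.165), with the unnumbered Sal library at 81.0 CPM and the other 3 near 52 CPM. It passed with the batch term (−0.35, 0.00758) but missed the cutoff in the numbered libraries (−0.42, 0.0105).

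JAG2 (ENSG00000184916, chr14:105607319-105635161, minus strand) was lowered by the combination at 24 h. An overlapping gene on the same strand shares 7.33% of its exon bases. The controls held 8.20, 10.4, 10.0 and 15.2 CPM and the S + D libraries 3.08, 3.35, 2.48 and 7.21 CPM, without overlap, a 2.66-fold fall (−1.41 ± 0.31, adjusted p = 0.00169). This was the largest fall of any member at 24 h. Sal (−0.50 ± 0.30, 0.318) and Das (−0.46 ± 0.30, 0.31) did not pass, though Sal did in the numbered libraries (−0.58, 0.00254). At 72 h no treatment passed: Sal gave 0.45 ± 0.29, Das −0.29 ± 0.29 and S + D −0.32 ± 0.29, with adjusted p of 0.184, 0.473 and 0.339.

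DLL1 (ENSG00000198719, chr6:170591294-170615653, minus strand), a Delta-like ligand, had between 0 and 11 counts per library and 0 in 4 of 32, too few for the edgeR fit. Exons of FAM120B on the opposite strand cover 9.69% of its exon bases. Its highest level was 0.309 CPM, in the unnumbered S + D library of 72 h. An exact two-sided permutation test of the mean CPM in 13 comparisons gave no p under 0.2 and no adjusted p under 0.742, where the smallest p that 4 libraries against 4 allow is 0.0286. Without Sal replicate 1 of 24 h the difference between Sal and control at that time rose from 0.0406 to 0.0603 CPM, with an exact p of 0.0286, which is also the smallest that 3 libraries against 4 allow and is not adjusted. In all libraries, differences of DLL1 were not detectable at this depth.

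HES1 (ENSG00000114315, chr3:193853937-193856521, plus strand) had the smallest standard errors of the members against control and was lower with every treatment except Sal at 24 h. The controls of 24 h held 87.5, 89.3, 89.2 and 82.9 CPM, the Sal libraries 73.3, 76.3, 74.1 and 63.1 CPM, the Das libraries 55.5, 58.3, 59.8 and 67.9 CPM and the S + D libraries 48.1, 49.2, 54.7 and 56.6 CPM. Every treated library lay below every control, and the means fell in the order control, Sal, Das and S + D. Both Das (log2 −0.51 ± 0.09, adjusted p = 0.000561) and S + D (−0.71 ± 0.09, 1.01e-05) lowered HES1. Sal gave −0.29 ± 0.09, which missed the cutoff (0.0377) and passed it in the numbered libraries (−0.24, 0.00211).

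At 72 h the HES1 controls held 113, 114, 119 and 91.5 CPM. The Sal libraries had dropped to 41.3, 41.5, 38.0 and 35.8 CPM and the S + D libraries to 32.4, 26.8, 25.9 and 28.6 CPM, with no overlap among these 3 groups. Sal lowered HES1 2.83-fold (−1.50 ± 0.15, adjusted p = 3.2e-07) and S + D 3.90-fold (−1.96 ± 0.16, 2.23e-08), the largest fall of a member in any comparison with control. Das libraries spread widely, at 52.1, 58.1, 92.5 and 69.0 CPM, so that replicate 3 overlapped the controls. The fall with Das was −0.70 ± 0.15 (0.00208), and it was lost without Das replicate 1 or 2 (0.0131).

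NRARP (ENSG00000198435, chr9:140194083-140196723, minus strand) separated Sal from Das at both times. Of its exon bases 2.76% are shared with an antisense gene. The controls of 24 h held 15.1, 15.5, 15.2 and 14.8 CPM, the Sal libraries 9.04, 8.49, 9.24 and 7.59 CPM, the Das libraries 15.5, 11.1, 13.3 and 17.4 CPM and the S + D libraries 9.34, 10.2, 10.3 and 11.9 CPM. Sal and S + D lay below all controls, and Das straddled them. Sal lowered NRARP 1.77-fold (−0.83 ± 0.13, adjusted p = 0.000541), while Das gave −0.06 ± 0.13 (0.789). S + D gave −0.50 ± 0.13 (0.00445), a call lost without S + D replicate 1, 2 or 3 (0.018).

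At 72 h the NRARP controls held 19.2, 21.8, 19.99 and 17.5 CPM, the Sal libraries 6.51, 6.01, 6.20 and 5.54 CPM and the S + D libraries 8.29, 6.91, 5.96 and 6.04 CPM. The fall was 3.28-fold with Sal (−1.71 ± 0.20, 1.19e-06) and 2.92-fold with S + D (−1.55 ± 0.20, 2.85e-06). The Das libraries, at 8.61, 8.79, 16.9 and 14.8 CPM, all lay below the controls, again with replicate 3 and the unnumbered library higher than replicates 1 and 2. Das gave −0.69 ± 0.19 and missed the cutoff (0.0113), which it passed without Das replicate 3 or the unnumbered library (0.00135) and in the numbered libraries (−0.84, 0.00879).

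HEY1 (ENSG00000164683, chr8:80674606-80680092, minus strand) was measured at 0.808 to 2.84 CPM. At 24 h the controls held 1.88, 1.65, 1.76 and 2.00 CPM and the S + D libraries 0.995, 1.02, 0.898 and 1.52 CPM, with no overlap (−0.68 ± 0.19, adjusted p = 0.00727). The call was lost without control replicate 1 or 3, the unnumbered control, or S + D replicate 1, 2 or 3 (0.0289). Without the filter on low counts it was lost too (−0.70, 0.0221). At 72 h all 3 treatments lay below all controls, at −0.72 ± 0.24 for Sal, −0.85 ± 0.24 for Das and −0.69 ± 0.23 for S + D, yet the adjusted p of 0.0126, 0.0107 and 0.016 were just above the cutoff. Sal passed without the unnumbered control (0.00997) and Das without Das replicate 3 or the unnumbered one (0.00414), and both passed in the numbered libraries (0.0071 and 0.00314).

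Neighbors in the order of mean levels mostly overlapped. For HES1 the order was control 72 h, control 24 h, Sal 24 h, Das 72 h, Das 24 h, S + D 24 h, Sal 72 h and S + D 72 h, and neighbors overlapped only from Sal 24 h through S + D 24 h. For NRARP the order was control 72 h, control 24 h, Das 24 h, Das 72 h, S + D 24 h, Sal 24 h, S + D 72 h and Sal 72 h, with gaps only between the controls and between S + D 24 h and Sal 24 h. NOTCH3 had 1 gap, between control 24 h and Das 24 h, and NOTCH1, JAG1, JAG2, HEY1 and DLL1 had none. NOTCH2 had 1 gap, above Sal 72 h, and NOTCH4 1, between S + D 72 h and Das 72 h.

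The combination was then compared with each drug, which asks whether S + D differed from Sal or Das. These comparisons share libraries with the ones above. At 24 h 1 of 9 members was lower with S + D than with Sal (HES1), where 7.06% of all genes were lower and 5.83% higher. HES1 differed by −0.42 ± 0.09 (adjusted p = 0.00307), which was lost without S + D replicate 1 or 2 (0.0149). With the replicate block JAG1 (−0.69, 0.000669) and JAG2 (−0.94, 0.000446) were also lower than with Sal. Against Das at 24 h edgeR called 0 members, 3 had an unadjusted p under 0.05, and DESeq2 called 1 (NRARP), with 4.46% of all genes lower and 4.03% higher. With the block 1 was called, JAG2 (−1.03, 0.000306). Without the unnumbered S + D library NOTCH1, NOTCH3, JAG1 and JAG2 were called against Sal, 5 members in all, and NOTCH3 and JAG2 against Das, and without Das replicate 2 NRARP was. The numbered libraries gave 6 calls against Sal, which added NOTCH1, NOTCH2, NOTCH3, JAG1 and JAG2 with log2 differences from −1.09 (JAG2) to −0.20 (NOTCH2) and adjusted p of at most 0.00748. Against Das they gave 7, all members tested but NOTCH4 and HEY1, from −1.37 (JAG2) to −0.21 (HES1) and at most 0.00466. The batch term gave 3 calls against Sal, with JAG1 and JAG2 added, and 3 against Das (NOTCH3, JAG2 and NRARP). The shares of all genes given here are from the main test. Those with the block, the numbered libraries or the batch term were not computed, so these larger counts have no background.

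At 72 h no member was called between S + D and Sal by edgeR or DESeq2, 4 had an unadjusted p under 0.05, and 1.59% of all genes were lower and 1.42% higher. The approximate 95% intervals of the log2 difference were −0.56 to 0.60 for NOTCH3, −0.22 to 0.55 for NRARP and −0.76 to −0.16 for HES1. HES1 had no overlap between the groups (−0.46 ± 0.15, adjusted p = 0.0708). The interval for NOTCH3 leaves room for a difference in either direction, so equal levels were not shown. With the batch term 2 members, JAG1 and JAG2, were lower with S + D than with Sal. JAG1 also passed with the replicate block (−0.47, 0.00565).

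Against Das at 72 h 3 of 9 members were lower with S + D (NOTCH2, HES1 and NRARP), with 17.7% of all genes lower and 14.3% higher. HES1 differed by −1.27 ± 0.15 (adjusted p = 6.42e-06). NRARP differed by −0.86 ± 0.20 (0.00177), lost without Das replicate 3 (0.0106) and in the numbered libraries (0.0164). NOTCH2 differed by −0.63 ± 0.16 (0.00356), lost without Das replicate 3 (0.0189), without the unnumbered S + D library, and in the numbered libraries (0.013). NOTCH3 was called without Das replicate 1 (0.00663) or 2, and JAG1, which was higher with S + D, without the unnumbered Das library (0.0047) and in the numbered libraries (0.55, 0.00311). The batch term added both.

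Das and Sal were also compared directly, each at its own dose, so that the difference is between these treatments and not between the compounds at equal concentration. At 24 h NRARP was higher with Das than with Sal, by 0.76 ± 0.13 (adjusted p = 0.000833), the 1 member called where 4.29% of all genes were higher and 3.7% lower, and with the replicate block JAG1 was lower (−0.71, 0.000733), as it was with the batch term. The numbered libraries added JAG1 (−0.76, 1.62e-08) and HES1 (−0.35, 5.91e-05), both lower with Das. At 72 h 2 were higher with Das, HES1 (0.81 ± 0.15, 0.000391) and NRARP (1.03 ± 0.20, 0.000473), against 16.9% of all genes. The 2 that were lower, against 15.2% of all genes, were JAG1 (−0.94 ± 0.21, 0.00139) and NOTCH4 (−1.56 ± 0.35, 0.00175). NOTCH4 missed the cutoff in the numbered libraries (0.0182). NOTCH3 was called as higher with Das without Das replicate 1 (0.00532) or 2 or the unnumbered Sal library, and JAG2 as lower without the unnumbered Das library (0.00192) and in the numbered libraries (−0.95, 0.00246). The batch term added both.

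An interaction term compared S + D with the sum of the single responses on the log2 scale, where 0 stands for additive responses and a value above 0 for a fall smaller than that sum. At 24 h edgeR called 0 members, none had an unadjusted p under 0.05, and DESeq2 called 0, with 0.0306% of all genes below the sum and 0% above it. At 72 h edgeR and DESeq2 called 0 members and 5 had an unadjusted p under 0.05, with 3.43% of all genes above the sum and 4.09% below it. Of the 9 members 7 had estimates above 0 and the median was 0.76, against −0.05 over all genes. The share of all genes above 0 was not computed. All genes are an unlike background here. Their medians with Sal and Das were 0.004 and 0.022, where those of the members were −0.614 and −0.775. NRARP gave 0.85 ± 0.28 (adjusted p = 0.0396) and was called without Das replicate 3 (0.00602). JAG1 gave 0.80 ± 0.29 (0.0633) and was called without the unnumbered Das library (0.00863), in the numbered libraries (0.97, 0.00246) and with the batch term. For HES1, whose falls with the single drugs were −1.50 and −0.70, the interaction was 0.23 ± 0.21, with an interval of −0.18 to 0.65.

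Time was examined over all 32 libraries. In the controls edgeR and DESeq2 called 0 members between 24 h and 72 h and 2 had an unadjusted p under 0.05, HES1 (0.33 ± 0.12) and NRARP (0.38 ± 0.16), with 2% of all genes higher at 72 h and 0.76% lower. The response to Sal was lower at 72 h than at 24 h for 3 of 9 members, against 13.7% of all genes and 8.21% higher. HES1 changed by −1.20 ± 0.17 (adjusted p = 7.34e-06), NOTCH3 by −1.45 ± 0.39 (0.00505) and NRARP by −0.88 ± 0.24 (0.00472). The HES1 difference was kept without each library in turn. NOTCH3 lost the call without control replicate 1 or 2 or Sal replicate 1 or 3 of 24 h, and without control replicate 3 or Sal replicate 2 or 3 of 72 h (0.0141), and NRARP without Sal replicate 1 or 3 of 24 h or control replicate 2 of 72 h (0.012). In the numbered libraries JAG1 was also called, as higher in the controls of 72 h than of 24 h (0.42, 0.00403) and with a lower response at 72 h to Sal (−0.46, 0.00865) and to Das (−0.66, 0.00458). The response of JAG2 to Sal was then higher at 72 h (1.02, 0.00291), a call that the batch term also made.

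The response to S + D was also lower at 72 h for HES1 (−1.21 ± 0.18, 1.23e-05) and NRARP (−0.99 ± 0.23, 0.00217), against 10.1% of all genes and 6.15% higher. JAG2 moved the other way, from the −1.41 of 24 h to −0.32 at 72 h, and this difference of 1.14 ± 0.45 missed the cutoff (adjusted p = 0.0574) and passed without the unnumbered S + D library of 24 h (0.00565) and in the numbered libraries (1.32, 0.000549). The batch term called it too, and NOTCH3 as lower at 72 h. For Das edgeR and DESeq2 called 0 members and 2 had an unadjusted p under 0.05, with 0.174% of all genes lower and 0.0522% higher. For HES1 the response to Sal deepened from −0.29 to −1.50, while that to Das was −0.51 and then −0.70, with a difference of −0.16 ± 0.17 (0.755). Whether the change over time differed between the drugs was not tested.

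**Figure D3:**
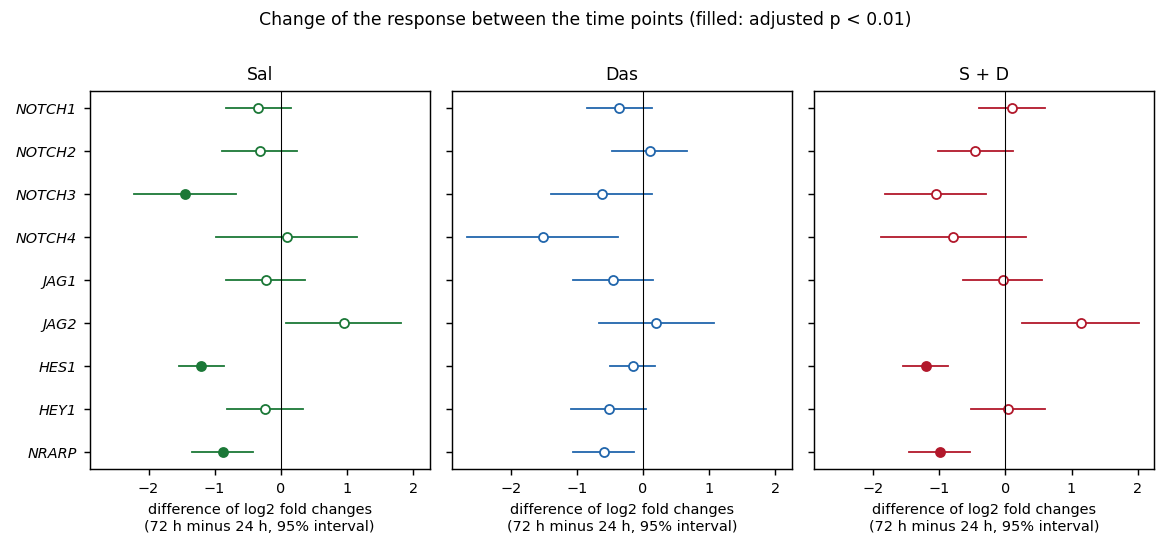
Difference between the log2 fold change against control at 72 h and that at 24 h (horizontal axis) for the 9 tested members, with 1 panel per treatment and bars for approximate 95% intervals. Filled points mark an adjusted p under 0.01: HES1, NOTCH3 and NRARP with Sal, HES1 and NRARP with S + D, and none with Das.

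A list of 57 other genes of the pathway was examined by role, of which 53 had enough counts (not DLK1, HES3, HES5 and HEYL). At 24 h Sal raised 1 and lowered 1, Das raised 3 and lowered 3, and S + D raised 5 and lowered 12. At 72 h Sal raised 7 and lowered 20, Das raised 2 and lowered 5, and S + D raised 7 and lowered 17. Over all genes at 24 h Sal raised 4.55% and lowered 2.23%, and Das raised 6.99% and lowered 6.88%. S + D raised 17.1% and lowered 16.5%. At 72 h Sal raised 26.3% and lowered 26.8%, and Das raised 10.5% and lowered 9.36%. S + D raised 27% and lowered 27.9%. At 24 h the genes of the list that were called were ADAM17 (higher) and KAT2A (lower) with Sal, and DLL4, FURIN and APH1B (higher) and LFNG, NEURL1B and HDAC1 (lower) with Das. Those higher with S + D were DLL4, FURIN, ADAM17, APH1B and ITCH, by 0.34 (ITCH) to 2.60 (DLL4) on the log2 scale. DLL4 had means under 1 CPM in the groups of these comparisons, so the size of its change is uncertain. At 72 h Das raised FURIN and APH1B and lowered DTX2, DTX3L, HDAC1, TLE3 and HES2, with log2 fold changes from −0.93 (TLE3) to −0.59 (HDAC1) among those lowered. Genes named only in such a list were named after their values were seen. The median log2 fold change of the list at 72 h was −0.32 for Sal, −0.13 for Das and −0.27 for S + D.

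Of the 5 other HES and HEY genes tested, Sal lowered 3 at 72 h (HES2, HES6 and HES7), and Das and S + D each lowered 1, which was HES2. Over all genes at 72 h Sal lowered 26.8%, Das 9.36% and S + D 27.9%. HES2 fell from 64.6 ± 7.58 CPM (SD, n = 4) in the controls to 21.9 ± 2.87 CPM with Sal (−1.57 ± 0.14, 8.02e-08), 37.7 ± 6.74 CPM with Das (−0.78 ± 0.14, 0.000376) and 17.8 ± 1.18 CPM with S + D (−1.87 ± 0.14, 1.28e-08). Its order of levels was therefore that of HES1. HES6, known as an antagonist of HES1, gave −1.94 ± 0.55 with Sal (0.00484) and −1.30 ± 0.53 with S + D (0.0394), which passed in the numbered libraries (−1.68, 1.59e-05). HES7, the oscillator gene of somite formation, was near 1 CPM and fell with Sal (−2.23 ± 0.41, 0.000152).

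Of the 13 genes of receptor and ligand trafficking and degradation, Sal raised 2 and lowered 6 at 72 h, Das lowered 2, and S + D raised 2 and lowered 6. The genes that rose were MIB2 and, in both cases, the ubiquitin ligase ITCH (0.68 and 0.48), of whose exon bases 23.9% are shared with other annotated genes. Over all genes Sal raised 26.3% and lowered 26.8% at 72 h, Das lowered 9.36%, and S + D raised 27% and lowered 27.9%. MIB2, a ubiquitin ligase of Notch ligands, rose from 27.7 ± 5.32 CPM to 80.5 ± 23.2 CPM with Sal (1.52 ± 0.24, 3.53e-05) and 90.3 ± 11.3 CPM with S + D (1.69 ± 0.25, 1.16e-05). At 24 h it passed only with the replicate block, with Sal (0.00345), Das (0.000848) and S + D (2.69e-05). NEURL1B, another ligase that acts on ligands, moved opposite to MIB2, with −1.63 ± 0.27 for Sal (4.45e-05) and −1.22 ± 0.27 for S + D (0.000605), and it was already lower at 24 h with Das (−0.80 ± 0.16, 0.00212) and S + D (−1.02 ± 0.17, 0.000116).

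The Deltex ligases DTX1 and DTX4, which act on the receptor, were lower as well. DTX4 stood at 263 ± 21.2 CPM in the 72 h controls, 66.3 ± 13.1 CPM with Sal (−2.01 ± 0.18, 8.08e-08) and 78.1 ± 17.4 CPM with S + D (−1.77 ± 0.18, 2.05e-07), and Das gave −0.18 ± 0.17 (0.441). DTX1, near 1 CPM, gave −1.17 ± 0.26 with Sal (0.000859) and −2.07 ± 0.28 with S + D (4.83e-06). With the block at 24 h DTX4 was also lower with Sal (0.00238).

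Of the 18 genes of the nuclear complex, Sal raised 1 and lowered 7 at 72 h, Das lowered 2, and S + D raised 1 and lowered 7. The gene that rose was KDM5A in both cases, a histone demethylase (0.50 and 0.44). Shares over all genes were 26.3% raised and 26.8% lowered with Sal, 9.36% lowered with Das, and 27% raised and 27.9% lowered with S + D. TLE3, a Groucho corepressor that HES proteins recruit, went from 301 ± 42.8 CPM to 102 ± 12.2 CPM with Sal (−1.58 ± 0.15, 1.66e-07), 159 ± 35.9 CPM with Das (−0.93 ± 0.15, 0.000197) and 68.5 ± 4.93 CPM with S + D (−2.15 ± 0.15, 8.21e-09). With the block it was lower with Sal at 24 h too (0.0014), as was HES2 (0.00587).

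Of the 9 genes of proteolytic activation, Sal raised 3 and lowered 2 at 72 h, Das raised 2, and S + D raised 2 and lowered 2. Over all genes Sal raised 26.3% and lowered 26.8%, Das raised 10.5%, and S + D raised 27% and lowered 27.9%. The α-secretase ADAM17 (0.85 and 0.86) and the γ-secretase subunit APH1B (0.59 and 0.76) rose with both Sal and S + D, and the subunit PSENEN rose with Sal (0.75). FURIN, the convertase that matures the receptor, fell with Sal (−0.77) and rose with Das (0.68). PSEN2, a catalytic subunit of γ-secretase, fell with Sal (−1.46) and S + D (−1.33), and ADAM10 with S + D (−0.64). Other annotated genes share 52.2% of the exon bases of PSENEN, 38.7% of those of PSEN2 and 11.7% of those of ADAM17, so these values are uncertain. The 5 glycosylation genes included LFNG, a Fringe enzyme that modifies the receptor and shifts its ligand preference, which fell at 24 h from 4.97 ± 0.191 CPM to 2.35 ± 0.449 CPM with Das (−1.06 ± 0.23, 0.00282) and 1.66 ± 0.718 CPM with S + D (−1.54 ± 0.23, 5.64e-05). At 72 h POGLUT1, which puts glucose on the receptor, was the 1 glycosylation gene that was lower with Sal (−0.68) and with S + D (−0.88). LFNG did not pass then, with estimates from −0.27 to −0.06. Of the 3 other ligands tested, DLL3 was lower with Sal at 72 h (−1.18) and DLL4 higher with S + D (2.21). The means of DLL4 were again under 1 CPM in both groups. DLK2, a noncanonical ligand, rose at 72 h with Sal from 0.614 ± 0.171 CPM to 3.12 ± 1.02 CPM (2.32 ± 0.28, 1.52e-06) and with S + D to 1.82 ± 0.278 CPM (1.54 ± 0.28, 0.000111).

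**Figure D4:**
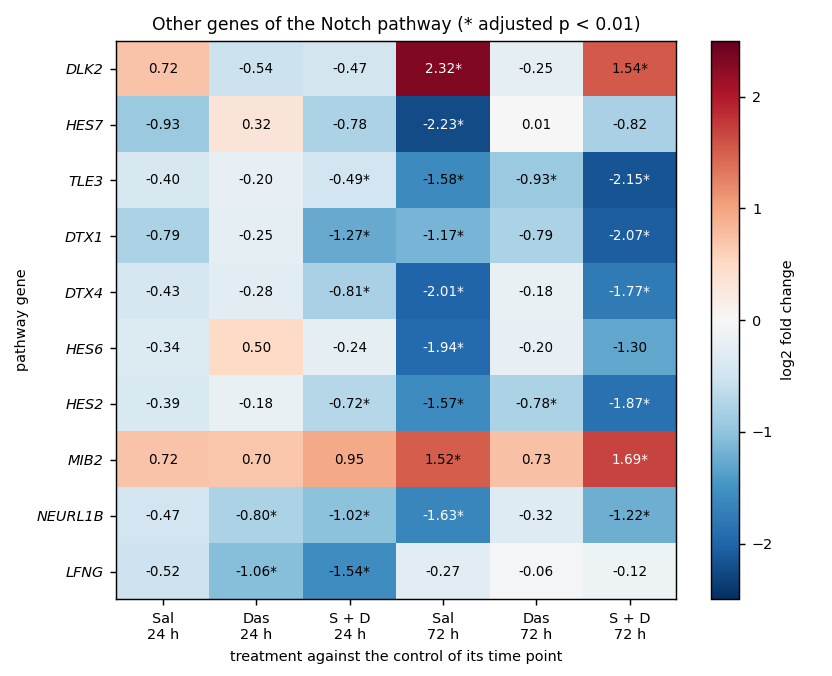
Log2 fold change against control (color and printed value) of the 10 named pathway genes outside the members (rows) with each treatment at 24 h and 72 h (columns), with a star where the adjusted p was under 0.01. DLK2 and MIB2 are red with Sal and S + D at 72 h, up to 2.32, while HES7 reaches −2.23 with Sal.

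Over the 8 condition means HES1, NRARP and NOTCH3 followed similar courses, and HEY1 followed them less closely. These are descriptions over 8 means of log2 levels, controls included, each of which holds an unnumbered library. The correlation was 0.943 between HES1 and NOTCH3, 0.86 between HES1 and NRARP and 0.913 between NRARP and NOTCH3. That of HEY1 was 0.527 with NOTCH3, 0.496 with HES1 and 0.547 with NRARP, and its highest with a member was 0.761, for JAG1. High values were not limited to HES1, NRARP and NOTCH3. NOTCH2 gave 0.865 with HES1, 0.828 with NOTCH3 and 0.777 with NRARP, and NOTCH1 gave 0.828 with NOTCH3. Among 14659 genes the courses most like HES1 were those of LHFPL1 (r = 0.999), ITGAL (0.995) and EFHD1 (0.995). Those most like NRARP were ACTR3B (0.983), KNOP1 (0.977) and FZD3 (0.971), and those most like HEY1 were CBARP (0.979), ME2 (0.971) and HRCT1 (0.962). High values are easily reached over 8 means in a search of this many genes.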

How the data were processed

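RNA of the 32 libraries was sequenced as single-end reads, which the authors aligned to GRCh37 with STAR 2.5.2. The deposited table holds raw read counts per Ensembl gene, and how they were counted, with which annotation and use of strand, is not given in the sources used here. Symbols came from GENCODE v44lift37, which matched 46537 of 48804 identifiers.

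The counts went into edgeR 4.0.16 (R 4.3.3) after removal of low genes by filterByExpr with min.count 10. TMM factors scaled the libraries, the test was quasi-likelihood, and p-values were adjusted over all genes by Benjamini-Hochberg. Each time point had its own fit of 16 libraries (16357 genes at 24 h, 16682 at 72 h), and comparisons of time used 1 fit of 32 (17227 genes). The call threshold was an adjusted p of 0.01. CPM values carry TMM factors computed over all 32 libraries, while each fit of a time point computed factors from its own 16. Approximate 95% intervals assume a normal estimate. All adjusted p-values in the text are from this test unless DESeq2 1.42.0 is named. The procedure was tested on simulated counts for Sal against control at 72 h, with a log2 change of 2 in 200 of 16614 genes. It called 195 of these and 0 others. The simulation held no shared shift of the unnumbered libraries and no smaller changes, so it does not cover them.

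Groups, doses and times came from the sample labels. The rule for pairing by replicate number was met at 24 h, where deviations of same-number libraries were all correlated above 0.1 (lowest 0.135). At 72 h it was not met (lowest −0.03). Deviations were taken from the mean of all 4 libraries, so a shift of the unnumbered library also enters those of the numbered ones. Libraries with different numbers were not compared, so pairing by number was not shown. The replicate block also gives the unnumbered libraries a term of their own. The named genes are all 10 members and, of the 57 other pathway genes, those that were called against control with a log2 fold change beyond 1.5 in size and a mean of at least 1 CPM. Members and lists were chosen with earlier results of these data known. Promoters of HEY1 and DLL1 were not searched, so the promoter counts cover only the other members. Low counts limit the precision for DLL1, NOTCH4 and HEY1. Alternatives were other size factors, no filter, a replicate block, the numbered libraries only, a batch term, DESeq2, other cutoffs, other fits and leaving out each library.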

Additional observations from a re-analysis of the deposited data

Results flagged for a closer look

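In 80 tests of whether a library lay far from the other 3 of its group (10 members in 8 conditions, Dixon's test), 7 did, where chance gives about 1 in 20. They were NOTCH2 in Das replicate 3 of 72 h (358.4 CPM), NOTCH3 in the unnumbered S + D library of 24 h (1135 CPM), JAG1 in the unnumbered libraries of control 24 h (72.6 CPM), S + D 24 h (56.0 CPM) and Sal 72 h (81.0 CPM), JAG2 in the unnumbered Das library of 72 h (13.5 CPM) and DLL1 in the unnumbered S + D library of 72 h (0.309 CPM). Of these, 6 were unnumbered libraries and each was the highest of its group. The NOTCH3 and JAG1 values of the unnumbered S + D library of 24 h stood against 486.1 to 562.9 CPM and 23.9 to 27.8 CPM in the numbered libraries, and leaving it out added calls for JAG1 against control and for NOTCH3, JAG1, JAG2 and NOTCH1 against Sal. Their cause was not tested.

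A difference between the response at 72 h and that at 24 h passed the interaction test for 5 pairs of gene and treatment. With Sal it was −1.45 for NOTCH3, −1.20 for HES1 and −0.88 for NRARP on the log2 scale, and with S + D −1.21 for HES1 and −0.99 for NRARP. The 2 treatments share their controls, so these are not independent of each other.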

How the results depend on the processing

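No member called in the main analysis changed direction under any alternative. The estimates that changed sign belonged to comparisons that were not called. In the numbered libraries NOTCH2 with Sal (0.04) and Das (0.062), NOTCH4 with Sal (0.30) and JAG1 with Sal (0.058) at 24 h, and NOTCH4 with Sal at 72 h (−0.10), changed sign. NOTCH4 with Das at 24 h was −0.001 with RLE factors, −0.002 without the filter, −0.039 with the replicate block, −0.043 with the batch term and −0.014 in the fit of all 32 libraries, and NOTCH4 with Sal at 72 h was −0.02 with the replicate block. Leaving out single libraries gave ranges that crossed 0 at 24 h for NOTCH2 with Sal (−0.19 to 0.14) and Das (−0.13 to 0.16), NOTCH4 with Sal (−0.37 to 0.29), Das (−0.31 to 0.34) and S + D (−0.27 to 0.38), JAG1 with Sal (−0.14 to 0.062) and NRARP with Das (−0.16 to 0.043), and at 72 h for NOTCH4 with Sal (−0.23 to 0.26) and NOTCH2 with Das (−0.071 to 0.11). For DLL1 the difference of mean CPM ranged from −0.0362 to 0.0268 for Das and −0.0376 to 0.00147 for S + D at 24 h, −0.0301 to 0.00533 for Das at 72 h, −0.0451 to 0.0179 for S + D against Das at 24 h, −0.0202 to 0.0686 for S + D against Sal at 72 h and −0.0332 to 0.000323 for the controls over time.

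The number of members called moved by over 1.5 times under these settings. With the replicate block it was 2 for Das 24 h, 7 for Das 72 h, 3 and 1 for S + D against Sal and Das at 24 h, 1 and 5 at 72 h, 2 and 7 for Das against Sal at 24 h and 72 h, 2 for the interaction at 72 h and 4 for the S + D response over time. At 72 h and across times the rule for pairing by number was not met. The numbered libraries gave 4 for Sal and 2 for Das at 24 h, 6 and 7 for S + D against Sal and Das, 3 for Das against Sal, 1 for the interaction at 72 h, 1 for the controls over time, and 5 and 1 for the Sal and Das responses over time. The batch term gave 2 for Sal and Das at 24 h, 7 for Das at 72 h, 3 for S + D against either drug at 24 h, 2 and 5 against Sal and Das at 72 h, 2 for Das against Sal at 24 h, 1 for the interaction at 72 h and 4 for the S + D response over time. DESeq2 gave 2 for Sal and Das at 24 h, 7 for Das at 72 h and 1 for S + D against Das at 24 h. A cutoff of 0.05 gave 2 for Sal and Das at 24 h, 7 for Das at 72 h, 3 and 2 for S + D against Sal and Das at 24 h, 2 and 7 for Das against Sal, and 1 for the interaction at 72 h. Asking also for a log2 fold change above 1.5 left 0 at 24 h in every comparison called, 1 for Das and 3 for S + D at 72 h, 0 for S + D against Das, 1 for Das against Sal, and 0 for the responses over time. Without the filter Das 24 h gave 2, the fit of all 32 libraries gave 2 for Das 24 h, 7 for Das 72 h and 1 for the interaction at 72 h, and fits of only the groups compared gave 2 for Das at 24 h and at 72 h, 0 for S + D against Sal at 24 h and 1 for S + D against Das at 72 h. Leaving out each library gave 3 to 7 for S + D at 24 h, 1 to 7 for Das at 72 h, 0 to 5 and 0 to 2 for S + D against Sal and Das at 24 h, 1 to 4 against Das at 72 h, 0 to 1 for the interaction at 72 h and 1 to 3 for the Sal response over time. The cause of these moves was not tested. Shares of all genes were computed for the main test only, so these counts have no background.

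Counts were lowest for DLL1, NOTCH4 and HEY1, which limits their precision. Reads that match both NOTCH2 and its near-identical copies cannot be told apart here, nor can reads from the small exon stretches that JAG1, DLL1 and NRARP share with antisense genes.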

Other observations

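The Das libraries of 72 h fell into 2 pairs for several members, a pattern that was noticed in the data and not tested. Replicate 3 and the unnumbered library were higher than replicates 1 and 2 for 6 of the 10 members: NOTCH3 (821 and 1149 against 419 and 424 CPM), HES1 (92.5 and 69.0 against 52.1 and 58.1 CPM), NRARP (16.9 and 14.8 against 8.61 and 8.79 CPM), JAG1 (31.6 and 43.9 against 23.4 and 23.9 CPM), NOTCH1 (45.8 and 59.0 against 42.2 and 37.8 CPM) and HEY1 (1.55 and 1.84 against 0.808 and 1.14 CPM). The share of all genes with this order was not computed, so it is not shown to be particular to the members. For NOTCH1, JAG1 and HES1 the 2 higher libraries lay further apart than the lower of them lay from replicates 1 and 2. Leaving out replicate 3 or the unnumbered library added calls for NRARP and HEY1 with Das against control at 72 h.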
